A study of Mus musculus with 3 samples.

Results

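The genes described here are the chemokines and chemokine receptors of the deposited tables, taken as every symbol that starts with Ccl, Cxcl, Cx3cl, Xcl, Ccr, Cxcr, Cx3cr, Xcr or Ackr followed by a digit. There were 58 such symbols among 25410, of which 38 named ligands and 20 named receptors. Their RNA was sequenced, after removal of ribosomal RNA, from 3 replicate cultures of IDG-SW3, a mouse osteocytic cell line with a conditional T antigen, at differentiation day 35 and after 24 h with 100 nM parathyroid hormone (PTH). The line is expanded at a reduced temperature with interferon-gamma, then moved to osteogenic medium at body temperature without interferon-gamma. All 3 libraries form the single treated group. The vehicle-treated cultures were not analysed here, so no response to PTH was measured and each statement below is about a level after treatment or about genes of the same library.

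Chemokines are small secreted proteins that guide migrating cells. They are named by the spacing of their first cysteines (CC, CXC, CX3C and XC), and most act on receptors that couple to inhibitory G proteins. A smaller set of atypical receptors binds chemokines without that coupling and removes them from the surroundings or shapes their gradients. In bone, Cxcl12 from stromal and osteoblast-lineage cells retains haematopoietic cells through Cxcr4, and Ccl2 and Ccl7 attract monocytes, the precursors of osteoclasts, through Ccr2 and related receptors.

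The libraries held 35195518, 37299517 and 45240005 counts in replicates 1, 2 and 3. The files are named for RPKM (counts scaled to transcript length in kilobases and to library total) but hold whole numbers whose sums are too large for that unit, so they were read as counts and RPKM was computed from them. The median variance between libraries was 8.77 times the mean for the 7124 symbols with 3 to 25 counts on average, so counting error alone understates the error of low members. The osteoblast-lineage markers Sparc, Col1a2 and Ibsp stood at 6408.7 ± 407.9, 2946.4 ± 90.4 and 2051.7 ± 414.6 RPKM (mean ± SD, n = 3, as throughout), and Sost, the defining gene of late osteocytes, was nearly undetected with 2, 0 and 0 counts. For all 21044 symbols with a length and a count, edgeR's quasi-likelihood test (two-sided) set the level against a fixed 1 RPKM. A symbol is called above or below where the Benjamini-Hochberg adjusted p was under 0.05, and unresolved otherwise. Of the 12 osteoblast and osteocyte markers 8 were above 1 RPKM (66.7%), beside 43.2% of all symbols tested. These 8 included the osteocyte genes Pdpn and Phex at 155.7 ± 27.6 and 9.05 ± 0.94 RPKM. The other 4 were unresolved: Sost and the osteocyte genes Dmp1, Mepe and Fgf23, the last 3 at 0.652 ± 0.547, 0.436 ± 0.216 and 0.266 ± 0.0816 RPKM.

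Of the 58 members, 48 were tested, 9 were listed at 0 in every library and Ccl21c had no matching transcript length. In the edgeR test 11 of the 48 were above 1 RPKM, or 22.9%, where 43.2% of all symbols tested were above. A further 9 were below, or 18.8%, where 13.5% of all symbols were below, and 28 were unresolved. The median level of the 48 members was 0.299 RPKM beside 0.738 RPKM over all symbols tested. Most members were therefore low, and a few ligands carried nearly all of the summed RPKM of the symbols that match the pattern. Ccrl1, a receptor outside the pattern that is described below, stood at 102.1 ± 2.8 RPKM and is not in that sum.

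Ligands and receptors differed in which members were abundant. Above 1 RPKM were 10 of 30 ligands tested (33.3%) and 1 of 18 receptors tested (5.56%), beside 43.2% of all symbols tested. Below it were 2 ligands (6.67%) and 7 receptors (38.9%), beside 13.5% of all symbols tested. The share above was thus under that of all symbols in both classes. Summed over members, ligands reached 516.6, 487.6 and 538.8 RPKM in replicates 1, 2 and 3, and receptors 13.7, 13.4 and 12 RPKM. The ligand sum was thus 37.6, 36.4 and 45 times the receptor sum, and 12.8, 11.1 and 16 times without Cxcl14. These ratios depend on the symbol pattern, which leaves out the receptor Ccrl1. With Ccrl1 added to the receptors and Cxcl14 kept, they were 4.42, 4.34 and 4.63. The ratio with Ccrl1 added and Cxcl14 left out was not computed. The typical ligand was not much higher than the typical receptor: the difference of class medians on the log2(RPKM + 0.1) scale was 0.29 ± 0.27, with 0.14, 0.14 and 0.60 in the 3 libraries. The contrast between the classes lay in the abundant members, and 7 ligands made up 97.2%, 97.4% and 96.8% of the ligand sum at median transcript lengths.

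**Figure D1:**
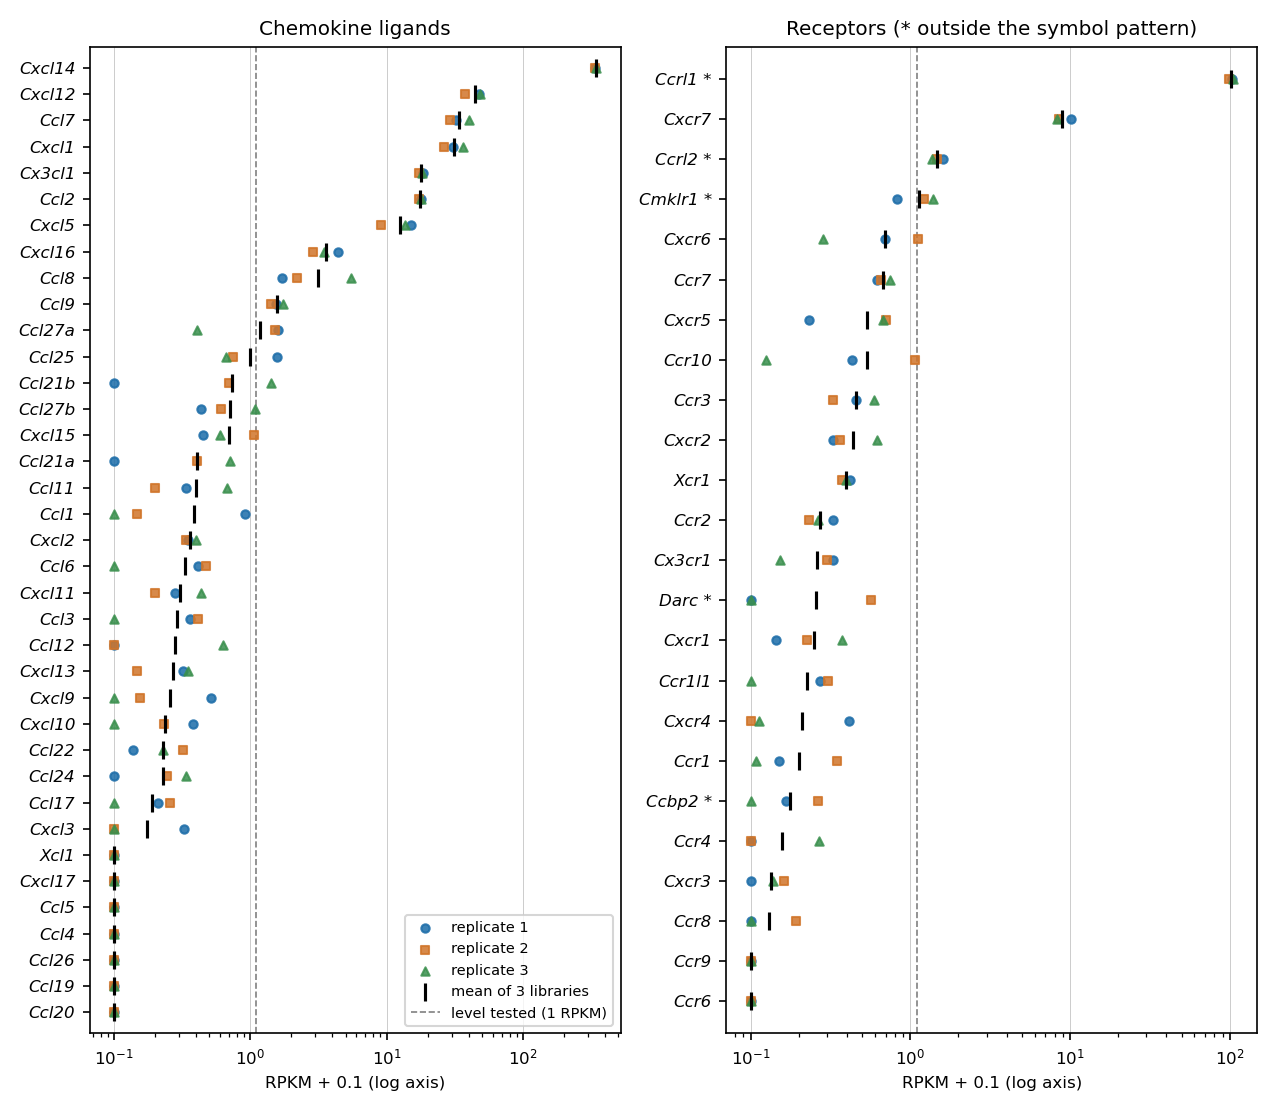
RPKM + 0.1 on a log axis for the 37 ligands with a transcript length (left) and for 19 of the 20 receptors with 5 related receptors outside the symbol pattern (right, starred). Points are the 3 libraries, ticks their mean, and the dashed line 1 RPKM; ligands spread from 0 to 342.3 RPKM, whereas Cxcr7 at 8.85 RPKM and the starred Ccrl1 at 102.1 RPKM stand apart from the other receptors.

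Cxcl14, a CXC chemokine made by epithelia and stromal cells whose receptor is not settled, was the highest member in every library. It had 19749, 20824 and 25879 counts in replicates 1, 2 and 3, or 340.7, 339.0 and 347.3 RPKM, and stood at 342.3 ± 4.41 RPKM (edgeR adjusted p = 2.97e-275 against 1 RPKM). The 3 libraries lay close together. Cxcl14 held 65.9%, 69.5% and 64.5% of the ligand sum and ranked 217th of the 23080 symbols with a length.

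Cxcl12, which retains haematopoietic stem cells and B-cell precursors in marrow, was the second ligand at 47.6, 37.3 and 48.5 RPKM in replicates 1, 2 and 3. Its mean was 44.5 ± 6.24 RPKM (edgeR adjusted p = 1.15e-184), with replicate 2 lowest. The symbol has 3 rows in the files, which carried 4891, 0 and 355 counts in replicate 1, so nearly all counts came from a single row, as in the other libraries (4064, 0 and 292 in replicate 2, and 6597, 0 and 281 in replicate 3). The files do not say which transcript each row is, and its level was 74.2 RPKM with the shortest and 24.8 RPKM with the longest annotated transcript. Cxcl12 was lower than Cxcl14 in 3 of 3 libraries (log2 difference −2.95 ± 0.20).

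The monocyte chemoattractants Ccl7 and Ccl2 were both abundant. Ccl7 stood at 32.1, 28.9 and 40.2 RPKM, with replicate 3 highest, and a mean of 33.7 ± 5.83 RPKM (edgeR adjusted p = 1.72e-141). Ccl2 stood at 17.9, 17.1 and 17.8 RPKM, with nearly equal libraries, and a mean of 17.6 ± 0.402 RPKM (edgeR adjusted p = 1.09e-103). Ccl7 exceeded Ccl2 in every library, by 0.84, 0.75 and 1.17 on the log2(RPKM + 0.1) scale, a mean of 0.92 ± 0.22. The order of Cxcl12 and Ccl7 was less firm: Cxcl12 was higher by 0.40 ± 0.15 on the same scale with median transcript lengths, and lower (−0.44) with the longest.

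The neutrophil attractants Cxcl1 and Cxcl5, which both signal through Cxcr2, were the other abundant CXC ligands. Cxcl1 stood at 30.5, 26.4 and 36.3 RPKM and at 31.1 ± 4.97 on average (edgeR adjusted p = 5.64e-142). Cxcl5 stood at 15, 9.07 and 13.5 RPKM, lowest in replicate 2, and at 12.5 ± 3.08 on average (edgeR adjusted p = 1.58e-88). Cxcl5 was lower than Cxcl1 in 3 of 3 libraries (log2 difference −1.32 ± 0.27), and their ranges over libraries did not overlap. Their relatives Cxcl2 and Cxcl3 were far lower, at 0.261 ± 0.0331 and 0.0746 ± 0.129 RPKM, and were unresolved. Cxcl15 was unresolved as well, at 0.601 ± 0.318 RPKM.

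Both membrane-anchored chemokines were above 1 RPKM. Cx3cl1 (fractalkine), which is shed by the metalloproteases Adam10 and Adam17, had 306, 302 and 384 counts and stood at 17.9 ± 0.646 RPKM (edgeR adjusted p = 1.32e-86). That level depends on the transcript taken: the annotated lengths were 377, 470 and 3315 bases for the shortest, the median and the longest. The longest gives 2.54 RPKM, still above 1 RPKM. With the longest transcripts Cx3cl1 lay under Cxcl16 (3.48 RPKM) and Ccl8 (3.02 RPKM). Its place among the abundant ligands rests on the length taken. Cxcl16 stood at 4.32, 2.78 and 3.35 RPKM and at 3.48 ± 0.776 on average (edgeR adjusted p = 3.73e-29). The sheddases themselves were well expressed, with Adam10 at 26.4 ± 3.58 and Adam17 at 24.7 ± 0.0603 RPKM.

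The last 2 ligands above 1 RPKM were less certain. Ccl8, a CC chemokine close to Ccl2 and Ccl7, stood at 1.61, 2.1 and 5.36 RPKM, so that replicate 3 was well above the other libraries, and at 3.02 ± 2.04 on average (edgeR adjusted p = 8.64e-06). Its call was lost without replicate 3 (edgeR adjusted p = 0.132) and with DESeq2 (adjusted p = 0.0997). Ccl9, a myeloid chemokine, stood at 1.45, 1.32 and 1.64 RPKM, a mean of 1.47 ± 0.161 (edgeR adjusted p = 0.0193). It did not hold when replicate 1 (edgeR adjusted p = 0.0716) or replicate 3 (0.101) was left out, nor with DESeq2 (adjusted p = 0.658).

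The ligands of Cxcr3, which interferon-gamma induces in many cells, had low levels, each under the ligand median of 0.261 RPKM. Cxcl9 had 42, 6 and 0 counts in replicates 1, 2 and 3, a mean of 0.156 ± 0.224 RPKM, and Cxcl10 had 12, 6 and 0 counts, a mean of 0.137 ± 0.139 RPKM. Cxcl11, which the mouse reference annotates as a pseudogene, had 17, 10 and 41 counts and stood at 0.206 ± 0.121 RPKM. The edgeR test placed Cxcl9 and Cxcl11 below 1 RPKM (adjusted p = 0.0456 and 0.0344) and left Cxcl10 unresolved (0.229). Leaving out replicate 1 (edgeR adjusted p = 0.305) or replicate 2 (0.144) ended the Cxcl9 call, and leaving out any library ended the Cxcl11 call (0.103, 0.138 and 0.0651). In the same libraries 7 of 13 genes of the interferon response list were above 1 RPKM, or 53.8%, not far from the 43.2% of all symbols tested, with Ifit3 at 32.0 ± 3.04, Ifit1 at 16 ± 2.08 and Gbp2 at 12 ± 0.924 RPKM, and the list summed to 100.5, 107.2 and 106.7 RPKM. The genes of the list did not all follow the same order over the libraries. Any link between them and the Cxcl9 and Cxcl10 counts was not tested.

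The remaining ligands were unresolved or at 0, except Ccl21c, which had counts but no transcript length and was not tested. Ccl27a stood at 1.08 ± 0.671 RPKM over 4 rows, Ccl25 at 0.895 ± 0.504 over 2 rows and Ccl27b at 0.609 ± 0.339 over 2 rows. Ccl21a, Ccl21b and Ccl21c had 0, 10 and 24, 0, 9 and 24, and 0, 9 and 24 counts in replicates 1, 2 and 3. These near-identical copies agreed within 1 count in each library, so their reads may be shared and the 3 symbols cannot be taken as separate measurements. Ccl11, Ccl1, Ccl6, Ccl3, Ccl12, Cxcl13, Ccl22, Ccl24 and Ccl17 had mean levels from 0.302 down to 0.089 RPKM. Of these, Ccl1, Ccl3, Ccl6 and Ccl17 had no count in replicate 3, Ccl12 had counts in replicate 3 only, and Ccl24 had none in replicate 1. The 7 ligands listed at 0 were Ccl4, Ccl5, Ccl19, Ccl20, Ccl26, Cxcl17 and Xcl1. For Ccl5, which attracts T cells and monocytes, a count of 0 allows up to 3 counts, or 0.16, 0.151 and 0.125 RPKM in the 3 libraries. Ccl20 has 2 rows, and symbols with several rows were at 0 more often than others (32.2% against 5.77%), so its 0 is not read as absence.

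Among receptors, Cxcr7 was the only member above 1 RPKM. It is the atypical receptor now named Ackr3, which binds Cxcl12 and Cxcl11 and takes them up. Cxcr7 had 1078, 956 and 1136 counts, or 9.99, 8.36 and 8.19 RPKM, and a mean of 8.85 ± 0.994 RPKM (edgeR adjusted p = 1.03e-93). It held 72.8%, 62.4% and 68.4% of the receptor sum, and all other receptors together summed to 3.74, 5.04 and 3.79 RPKM. The call held in all 11 alternative fits run for it.

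A further atypical receptor lies outside the symbol pattern. Ccrl1, now named Ackr4, which scavenges Ccl19, Ccl21 and Ccl25, stood at 102.1 ± 2.8 RPKM with 8070, 8215 and 10503 counts (edgeR adjusted p = 1.15e-225). With Ccrl1 added to the receptors, the ligand sum was 4.42, 4.34 and 4.63 times the receptor sum in the 3 libraries. Of the ligands of Ccrl1, Ccl25 (0.895 ± 0.504 RPKM over 2 rows), Ccl21a and Ccl21b were unresolved with means under 1 RPKM. Ccl21c was not tested and Ccl19 was at 0. The other relatives in that list were Ppbp (Cxcl7), above at 1.76 ± 0.522 RPKM (edgeR adjusted p = 0.024), and Ccrl2, Cmklr1, Pf4, Darc and Ccbp2, which were unresolved at 1.37 ± 0.109, 1.04 ± 0.292, 0.612 ± 0.39, 0.157 ± 0.272 and 0.0774 ± 0.0827 RPKM. Darc and Ccbp2 are the atypical receptors now named Ackr1 and Ackr2. The Ppbp call was lost without replicate 1 (edgeR adjusted p = 0.318) and with DESeq2 (adjusted p = 0.53).

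The conventional receptors were all at low levels, with means under 1 RPKM. Cxcr4, the signalling receptor of Cxcl12, had 20, 0 and 1 counts, or 0.315, 0 and 0.0122 RPKM, and was unresolved (edgeR adjusted p = 0.165). Replicate 1 held nearly all of its counts. Among the 7 receptors called below was Xcr1, a dendritic cell receptor (0.296 ± 0.0241 RPKM, edgeR adjusted p = 0.00176). Also below were the monocyte receptors Cx3cr1 and Ccr2 at 0.16 ± 0.0937 and 0.174 ± 0.0485 RPKM (edgeR adjusted p = 0.0109 and 0.0189). Ccr3 (0.36 ± 0.132, 0.0135), Cxcr2 (0.337 ± 0.16, 0.0312) and Cxcr5 (0.439 ± 0.267, 0.0393) were called below as well. Xcr1 kept the call with any library left out, whereas Cx3cr1, Ccr2, Ccr3, Cxcr2 and Cxcr5 lost it without replicate 1 and without replicate 2, and DESeq2 called 0 members below, 0 also at an unadjusted p under 0.05, where limma called 31 of the 48.

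Of the 10 unresolved receptors, Cxcr6 and Ccr7 were highest at 0.599 ± 0.414 and 0.574 ± 0.0673 RPKM. Ccr10 stood at 0.439 ± 0.478 RPKM with 20, 62 and 2 counts, so its level rested on replicate 2. Cxcr1, Ccr1l1, Cxcr4, Ccr1, Ccr4, Cxcr3 and Ccr8 had means from 0.148 down to 0.0304 RPKM. Ccr6, with 7 rows, and Ccr9, with 2 rows, were listed at 0, and neither 0 is read as absence. In a bulk sample, fewer cells of a type and less RNA per cell cannot be told apart.

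Levels of markers of other cell types are given here for the same libraries. Of 8 macrophage and osteoclast markers 1 was above 1 RPKM, Lyz2 at 12.9 ± 1.1, and the list summed to 14.9, 15.6 and 13.3 RPKM in replicates 1, 2 and 3. Cd68 and Cd14 were unresolved at 0.767 ± 0.62 and 0.684 ± 0.0592 RPKM. Csf1r stood at 0.152 ± 0.0788, the pan-leukocyte gene Ptprc had a single count in replicate 2, and Itgam and Acp5 were at 0. The 7 T and B cell markers and the 5 neutrophil markers had sums of 0.171, 0.731 and 0.329 RPKM and of 1.57, 0.618 and 0.455 RPKM. Cd8a and Cd79b were at 0. Of 6 endothelial markers Kdr was above, at 2.62 ± 0.185 RPKM, with list sums of 3.82, 3.54 and 4.13 RPKM. Tek and Cdh5, with 1 row each, were below at 0.336 ± 0.122 and 0.128 ± 0.121 RPKM (edgeR adjusted p = 0.00186 and 0.0164). Vwf was unresolved at 0.751 ± 0.252 RPKM, and Pecam1 and Emcn were at 0. Of 6 adipocyte markers Fabp4 (9.72 ± 3.19 RPKM) and Adipoq (1.88 ± 1.16) were above and Plin1 was at 0. Lep was below at 0.354 ± 0.0859 RPKM (edgeR adjusted p = 0.0131), and 2 were unresolved. The adipocyte list summed to 11.2, 11.2 and 17.3 RPKM. Of the macrophage and osteoclast, endothelial and adipocyte markers tested, 16.7%, 25% and 40% were above, beside 43.2% of all symbols tested. Below were 33.3%, 50% and 20%, beside 13.5% of all symbols. Of the markers named at 0, Cd79b has 1 row, whereas Itgam, Acp5, Cd8a, Pecam1, Emcn and Plin1, like Ptprc, have several rows, so their values are not read as absence. The part of these cells in the chemokine levels was not tested.

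Set against their receptors within each library, the abundant ligands were far in excess. In 12 of 23 ligand-receptor pairs the ligand was higher in all 3 libraries, in 3 it was lower in all 3, and the rest had mixed signs or both genes at 0. Some pairs share a ligand or a receptor, so these are not 12 separate contrasts. The 12 include Ccl25 over Ccr9, whose 0 is not read as absence. They also include Ccl27a over Ccr10, which reversed with rows averaged. The smallest p of the exact two-sided sign-flip permutation test is 0.25 for 3 libraries, so the pairs are described by their spread. Cxcl12 exceeded Cxcr4 by 6.85, 8.55 and 8.76 on the log2(RPKM + 0.1) scale (mean 8.05 ± 1.05), but its other receptor Cxcr7 by only 2.24, 2.14 and 2.55 (mean 2.31 ± 0.21). Ccl7 exceeded Ccr2 by 6.95 ± 0.32, Ccr1 by 7.56 ± 1.09 and Ccr3 by 6.23 ± 0.20 on the same scale, and Ccl2 exceeded Ccr2 by 6.03 ± 0.22. Cxcl1 and Cxcl5 exceeded Cxcr2 by 6.20 ± 0.34 and 4.88 ± 0.57, and Cx3cl1 exceeded Cx3cr1 by 6.19 ± 0.61. The smaller excess of Cxcl16 over Cxcr6, 2.54 ± 1.12, varied between libraries as Cxcr6 did. Differences from low receptors depend on the pseudocount: with 1 in place of 0.1, Cxcl12 over Cxcr4 was 5.36 and Ccl2 over Ccr2 was 3.99. With the longest transcripts Cx3cl1 over Cx3cr1 was 3.56, and with rows averaged Cxcl12 over Cxcr7 was 0.73. Among the pairs with the receptor higher were Xcl1 and Xcr1 (−1.98 ± 0.09) and Ccl19 and Ccr7 (−2.75 ± 0.14), each with the ligand listed at 0 and a receptor that was itself low. Pairs of Ccrl1 with its ligands, and of Cxcr7 with Cxcl11, were not among the 23. Ccrl1 stood at 102.1 ± 2.8 RPKM, above Ccl25 at 0.895 ± 0.504. Cxcr7 stood at 8.85 ± 0.994 RPKM, above Cxcl11 at 0.206 ± 0.121.

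**Figure D2:**
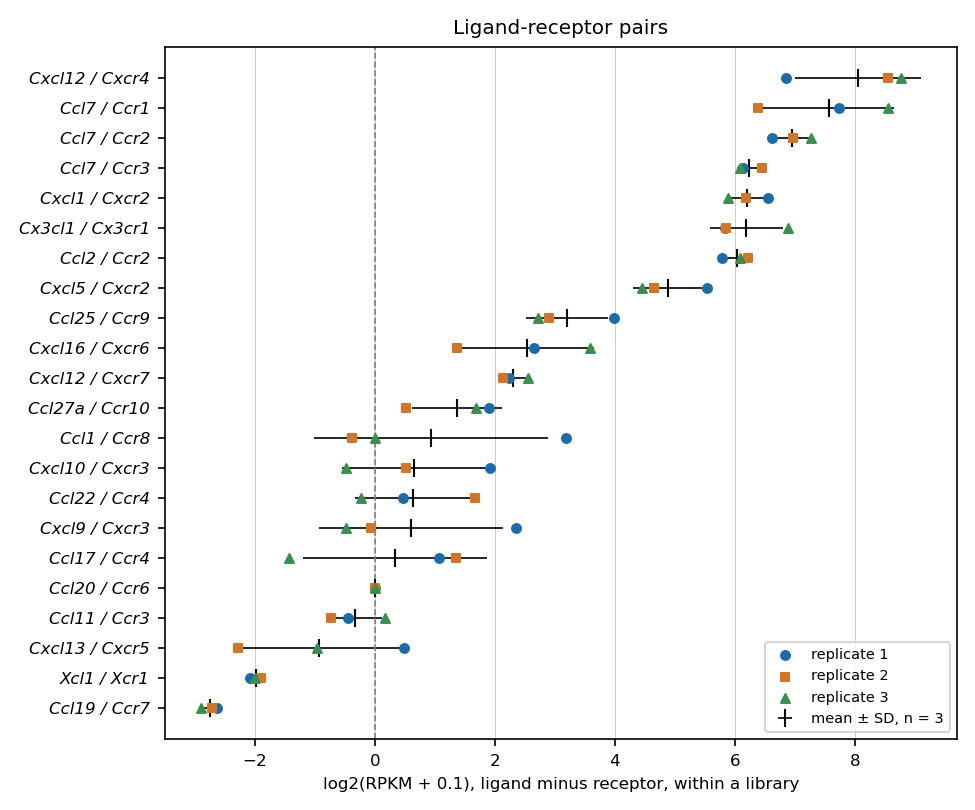
Ligand minus receptor on the log2(RPKM + 0.1) scale for 22 of the 23 pairs, with a point for each library and the mean ± SD over 3 libraries; the dashed line at 0 marks equal levels. The pairs of Cxcl12, Ccl7, Cxcl1, Cx3cl1, Ccl2 and Cxcl5 with their leukocyte receptors lie at mean differences of 4.88 to 8.05, whereas Cxcl12 over Cxcr7 lies at 2.31. These values use median transcript lengths, and with the longest Cx3cl1 over Cx3cr1 is 3.56.

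Many chemokine genes sit side by side, and neighbours differed widely in level. Gene order was taken from RefSeq (GRCm38.p6), while the authors' build was mm9, so only the order is used. In the run Ccl2, Ccl7, Ccl11, Ccl12, Ccl8 and Ccl1, the first pair stood at 17.6 and 33.7 RPKM, Ccl11 and Ccl12 at 0.302 ± 0.243 and 0.178 ± 0.309, Ccl8 at 3.02, and Ccl1 at 0.285 ± 0.453. In the run Cxcl5, Ppbp, Pf4, Cxcl3, Cxcl15, Cxcl1 and Cxcl2, the abundant genes were Cxcl5 at the start and Cxcl1, at 12.5 and 31.1 RPKM, with low genes between them and Cxcl2 beyond. In the run Ccl5, Ccl9, Ccl6, Ccl3 and Ccl4, only Ccl9 was above 1 RPKM. Cx3cl1 lay between Ccl22 and Ccl17, which stood at 0.129 ± 0.0897 and 0.089 ± 0.0804 RPKM. The receptor run Ccr9, Cxcr6, Xcr1, Ccr1, Ccr1l1, Ccr3 and Ccr2 had means from 0 to 0.599 RPKM.

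**Figure D3:**
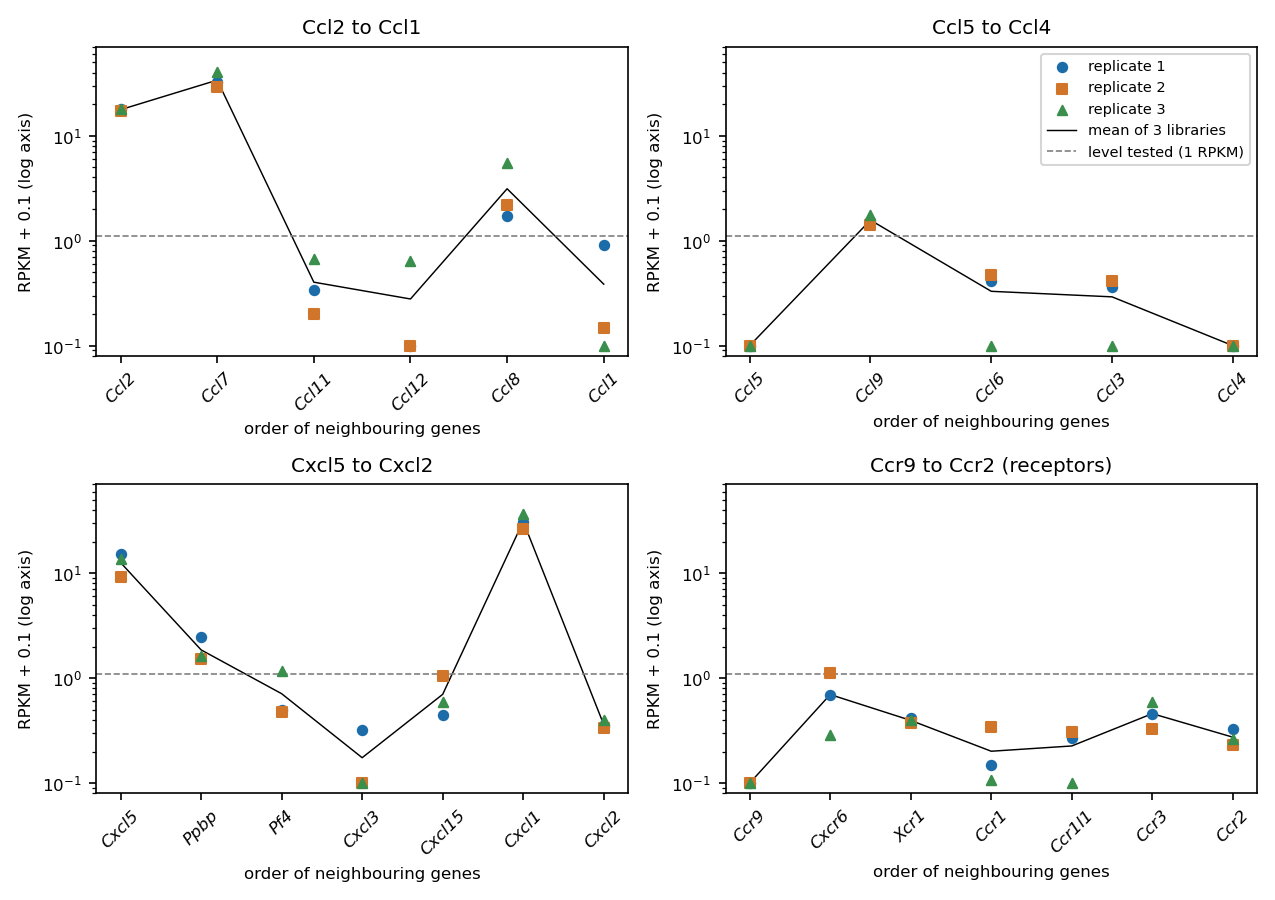
RPKM + 0.1 on a log axis for 4 runs of neighbouring genes, in genome order from left to right and not to scale, with a point for each library, a line through the means of 3 libraries and a dashed line at 1 RPKM. Cxcl1 at 31.1 RPKM stands next to Cxcl2 at 0.261 RPKM, and Ccl7 at 33.7 RPKM next to Ccl11 at 0.302 RPKM.

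The upstream sequences of neighbours with unlike levels, Cxcl1, Cxcl2 and Cxcl3, and of the 2 highest ligands and Cxcr7 were read from RefSeq (GRCm38.p6), 250 bases up to the annotated start, 5′ to 3′ on the gene's strand. The choice was made after the levels were seen. Capitals mark, on either strand, TATAAA, the NF-kB consensus and TGACG, the half-site of the cyclic AMP response element, printed as CGTCA where it lies on the other strand.
Cxcl1 (chr5:90890995-90891244, plus strand): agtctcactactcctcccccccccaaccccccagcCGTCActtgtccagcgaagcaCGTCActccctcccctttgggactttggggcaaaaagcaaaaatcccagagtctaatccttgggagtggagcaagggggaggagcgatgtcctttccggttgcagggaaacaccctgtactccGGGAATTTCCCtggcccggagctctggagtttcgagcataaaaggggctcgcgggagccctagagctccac
Cxcl2 (chr5:90903649-90903898, plus strand): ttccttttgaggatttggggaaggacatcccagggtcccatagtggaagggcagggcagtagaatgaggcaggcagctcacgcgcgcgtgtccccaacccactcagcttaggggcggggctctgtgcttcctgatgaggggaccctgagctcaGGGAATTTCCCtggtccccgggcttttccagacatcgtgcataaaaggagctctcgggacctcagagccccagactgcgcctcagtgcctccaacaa
Cxcl3 (chr5:90785851-90786100, plus strand): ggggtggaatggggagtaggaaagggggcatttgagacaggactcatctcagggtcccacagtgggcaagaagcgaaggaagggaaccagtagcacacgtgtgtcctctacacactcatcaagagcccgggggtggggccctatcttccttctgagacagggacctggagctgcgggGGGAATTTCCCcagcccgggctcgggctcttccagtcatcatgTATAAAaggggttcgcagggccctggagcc
Cxcl12 (chr6:117168285-117168534, plus strand): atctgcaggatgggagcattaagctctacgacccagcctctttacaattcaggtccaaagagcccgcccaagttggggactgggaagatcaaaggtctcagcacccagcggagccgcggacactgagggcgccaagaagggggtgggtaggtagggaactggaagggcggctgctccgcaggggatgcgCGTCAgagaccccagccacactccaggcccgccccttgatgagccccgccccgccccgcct
Cxcl14 (chr13:56296552-56296801, minus strand): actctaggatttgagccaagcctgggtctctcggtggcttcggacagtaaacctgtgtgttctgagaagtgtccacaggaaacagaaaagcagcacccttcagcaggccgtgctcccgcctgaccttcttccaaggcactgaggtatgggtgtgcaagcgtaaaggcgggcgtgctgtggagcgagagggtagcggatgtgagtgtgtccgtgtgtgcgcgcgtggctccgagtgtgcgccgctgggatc
Cxcr7 (Ackr3) (chr1:90203730-90203979, plus strand): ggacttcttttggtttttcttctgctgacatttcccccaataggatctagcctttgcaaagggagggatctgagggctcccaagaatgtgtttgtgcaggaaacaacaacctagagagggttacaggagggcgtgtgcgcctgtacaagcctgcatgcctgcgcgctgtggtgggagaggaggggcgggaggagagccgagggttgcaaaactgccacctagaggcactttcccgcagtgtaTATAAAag

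Cxcl1, Cxcl2 and Cxcl3 each held the same run of 11 bases, GGGAATTTCCC, which matches the NF-kB consensus on both strands and starts 71, 97 and 73 bases before the start, although Cxcl1 stood at 31.1 RPKM and Cxcl2 and Cxcl3 at 0.261 and 0.0746. TGACG occurred upstream of Cxcl1, at 2 places, and of Cxcl12, at 1 place, and not in the windows of Cxcl2, Cxcl3, Cxcl14 and Cxcr7. The windows of Cxcl3 and Cxcr7 held TATAAA, 30 and 8 bases before the start. Over all 32851 promoter windows, 12.4% held TATAAA, 7.25% the NF-kB consensus and 17.8% TGACG. Of the 42 members with a window, 14 held TATAAA, 10 the NF-kB consensus and 7 TGACG. Ccl25, Ccl27a, Ccl27b and Ccr6 have several windows and were counted where any of them matched. These counts are therefore per member, whereas the shares are per window. No window was matched for Ccl2, Ccl7, Cxcl5 or Cxcl16. A match describes letters only and no binding was measured.

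Levels of genes that act with chemokines were taken from further lists. In the list of chemokine processing and anchoring genes, 13 of 16 were above 1 RPKM (81.2%) and 1 below (6.25%), where 43.2% and 13.5% of all symbols tested were above and below, and the median was 26.2 RPKM. The heparan sulfate carriers Sdc4 and Sdc1 and the protease Mmp2, which can trim Cxcl12, stood at 988.6 ± 145.2, 350.7 ± 30.4 and 285.1 ± 18.6 RPKM, and Mmp14 at 173.6 ± 6.82. The member below was Dpp4, another protease that inactivates Cxcl12, at 0.168 ± 0.151 RPKM over 2 rows. Of 16 inflammatory receptors and adaptors 14 were above (87.5%) and 1 below (6.25%), beside the same shares of all symbols, with a median of 13 RPKM, led by Il6st at 174.7 ± 10.8, Ifnar1 at 69.1 ± 4.02, Ifngr1 at 50.9 ± 2.89 and the lipopolysaccharide receptor Tlr4 at 26.6 ± 3.33 RPKM. The lead of Il6st rests on the length taken: with the longest transcripts it stood at 55.9 RPKM and Ifnar1 at 59.1 RPKM.

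In the NF-kB list and the receptor signalling list the share above 1 RPKM was near that of all symbols. Of 13 NF-kB pathway genes tested 6 were above (46.2%) and 4 below (30.8%), where 43.2% and 13.5% of all symbols were. The genes below were Rel and, with several rows each, Nfkb2, Ikbkb and Tnfaip3, whose low values are not read as absence. Nfkb1 was highest at 19.5 ± 1.33 RPKM, followed by the inhibitor Nfkbia at 6.11 ± 0.356, Relb at 3.99 ± 0.318 and Nfkbie at 2.78 ± 0.233. Ikbkg, with 7 rows, was at 0. Of 20 tested genes of receptor signalling and desensitization 10 were above (50%) and 3 below (15%). Arrb1 and Pik3cg, with several rows each, were at 0. The inhibitory G protein genes Gnai3 and Gnai2 stood at 196.5 ± 7.69 and 51.2 ± 4.45 RPKM, Rac1 at 47.6 ± 7.31 and Gnb2 at 28.1 ± 0.0749. The 3 genes below, a share near the 13.5% of all symbols, were Dock2, Pik3r5 and Plcb2. They stood at 0.112 ± 0.0405, 0.143 ± 0.0718 and 0.0586 ± 0.0133 RPKM. Dock2 has 2 rows, so its low value is not read as absence.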

How the data were processed

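The 3 files each listed a whole-number count for 30795 transcript rows, deposited without normalization. The file names say RPKM, but the values sum to 35195518 to 45240005 per library, far more than RPKM allows, and that reading is an inference from the values. Per the submitters' processing notes, TopHat and mm9 were used; for versions, counting tool, annotation and strand handling the sources used here give nothing. Rows were summed per symbol. Lengths were medians over GENCODE M21 basic transcripts (GRCm38), matched for 23080 of 25410 symbols, 2240 of them through RefSeq synonyms. RPKM used the total counts. Levels were tested against 1 RPKM with edgeR 4.0.16 (R 4.3.3): trended dispersion, robust quasi-likelihood F test, expected counts at 1 RPKM as offset, a Poisson bound on p, and symbols with a count in at least 1 library. The procedure was tested on simulated data. DESeq2 1.42.0, limma 3.58.1, other lengths, TMM, a count filter, averaged rows, a pseudocount of 1 in place of 0.1 and left-out libraries were alternatives. Members, 12 gene lists and pairs were chosen with earlier results of these data known. By a fixed rule every member could be named, and of each list the 4 genes of highest mean RPKM and defining markers at 0; other list genes named (Adam10, Adam17, Sost, Dmp1, Mepe, Fgf23, Pdpn, Phex, Ptprc, Rel, Nfkb2, Ikbkb, Tnfaip3, Pf4, Darc, Ccbp2, Dpp4, Dock2, Pik3r5, Plcb2 and the non-marker genes at 0) were chosen after their values were seen. The series text calls the replicates biological, and p-values measure the spread between these 3 cultures only. Limits on counts of 0 cover counting error only. Some genes counted in the totals are not reported here.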

Additional observations from a re-analysis of the deposited data

How the results depend on the processing

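The number of members above 1 RPKM was 11, and from 9 to 11 with a library left out; for ligands it was 10, and from 8 to 10, and for receptors 1 in every alternative. The number below was less stable: 9 in the edgeR test, 2 to 9 with a library left out, 5 with the shortest transcript lengths, 0 with DESeq2 (0 also at an unadjusted p under 0.05) and 31 with limma; the cause was not tested. Of the 9 members called below, 2 were still called without replicate 1 and 2 without replicate 2. Without a library, the difference of class medians ranged from 0.14 to 0.37 and the number of pairs with a higher ligand from 12 to 15. Averaging rows reversed the pairs Ccl27a over Ccr10 (−0.19) and Cxcl12 over Ccl7 (−1.18), since it divides by the number of rows, and the longest transcripts reversed the latter (−0.44). Unresolved levels near 1 RPKM changed sign: on the log2 scale, Ccl25 ranged from −0.73 to 0.08 and Ccl27a from −0.22 to 0.54 with a library left out, Cmklr1 from −0.12 to 0.26, and Ccl27a was −1.82 with averaged rows, −0.62 with the longest transcripts and −0.14 with limma. Of 506 alternative values of member levels, 439 kept direction and call. That number includes unresolved levels that stayed unresolved, and 28 of the 48 members were unresolved. Of the other values, 37 lost a call, 23 gained a call and 7 changed sign. No paired analysis was possible because there is a single group. Calls by depth were as follows: of 27 tested members with a mean count under 25, 23 were unresolved, beside 5 of the other 21.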
